A study of Mus musculus with 6 samples.

Results

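The genes described here encode the machinery that copies DNA. They were taken from a list of 56 gene symbols covering origin recognition, helicase loading and activation, the sliding clamp and its loaders, the polymerases, nucleotide synthesis and fork stability. All 56 were found among the 19938 genes tested, each through at least 1 probe set of its own. Levels were measured on Affymetrix Mouse Gene 1.0 ST arrays in bone marrow derived macrophages of C57BL/6 mice, with 3 arrays of M(CSF1) cells and 3 arrays of M(CSF2) cells. The labels give induction with CSF1 (M-CSF) for the first group and CSF2 (GM-CSF) for the second, 7 days for both, and the design text adds that the cells had been sorted. Neither the dose, the sorting marker nor the age and number of mice is given in the sources used here. The replicates are labelled biological, but no label ties them to separate animals or cultures, so each p-value reflects only how far these samples spread, which may in part be technical.

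Replication starts at origins bound by the origin recognition complex (ORC). Cdc6 and Cdt1 then load the ring-shaped MCM2-7 helicase onto DNA, a step called licensing that geminin (Gmnn) blocks outside its proper window. The kinases and the factors Cdc45, GINS and Mcm10 turn the loaded ring into a moving helicase, and polymerases held by the clamp Pcna copy the strands behind it. Many of these genes are transcribed in late G1 and S phase under E2F factors, and CSF1 is the classical mitogen of macrophages.

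The 6 arrays had medians of 3.91 to 4.00 on the log2 scale, and no array stood apart. Macrophage markers were high in both groups: all 8 were measured, and their summed linear signal was 15526 to 16007 in M(CSF1) and 15101 to 16076 in M(CSF2). Within that list Adgre1 (-1.18), Fcgr1 (-1.23) and Lyz2 (-0.48) were lower in M(CSF2), Csf1r (0.60), Cd68 (0.89) and Cd14 (1.71) were higher, and Itgam and Mertk did not pass the test described below (log2 differences). Among markers of other cells, the 10 neutrophil genes summed to 661 to 762 in M(CSF1) and to 2588 to 2966 in M(CSF2), with Mmp8 and S100a8 higher in M(CSF2), Csf3r lower, and Ly6g, Ngp, Ltf, Cxcr2 and Retnlg at or below the level of olfactory receptor genes on every array. The 8 dendritic cell genes summed to 143 to 162 and to 2180 to 2694, with Itgax and Ccr7 higher in M(CSF2) and Xcr1 and Clec9a at or below that level on every array. The 10 progenitor genes summed to 395 to 418 in M(CSF1) and to 394 to 433 in M(CSF2), with Kit and Gata2 higher, Cd48 lower, and Cd34 and Ctsg at or below the olfactory receptor level. Mast cell, erythroid and lymphocyte lists each summed to at most 81.4 on any array, and the 7 stromal genes to 213 to 275 and 270 to 337, with Dcn (3.30) and Cdh5 (1.03) higher in M(CSF2) and Postn (-2.91) lower. The part of these other cell types in the results that follow was not tested.

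M(CSF2) cells had lower levels of nearly all the replication genes. Of the 56, 52 were lower in M(CSF2), 1 was higher and 3 did not pass the test, an adjusted p under 0.05 from limma over all 19938 genes. In the background 15.6% of all genes were called lower and 11.9% higher. Differences are in log2 units and negative where M(CSF2) was lower. Their median was -1.27 over the replication genes and 0.04 over all genes. A fitted fall of at least 2-fold was called for 35 of the 56, against 4.42% of all genes, and of at least 4-fold for 13, against 1.14%. A rise of at least 2-fold was called for 1, Top2a, against 3.57%. In 53 of them every M(CSF2) array lay below every M(CSF1) array, which held for 19.8% of all genes. Fewer cycling cells and less of these transcripts per cell cannot be told apart in bulk RNA.

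**Figure D1:**
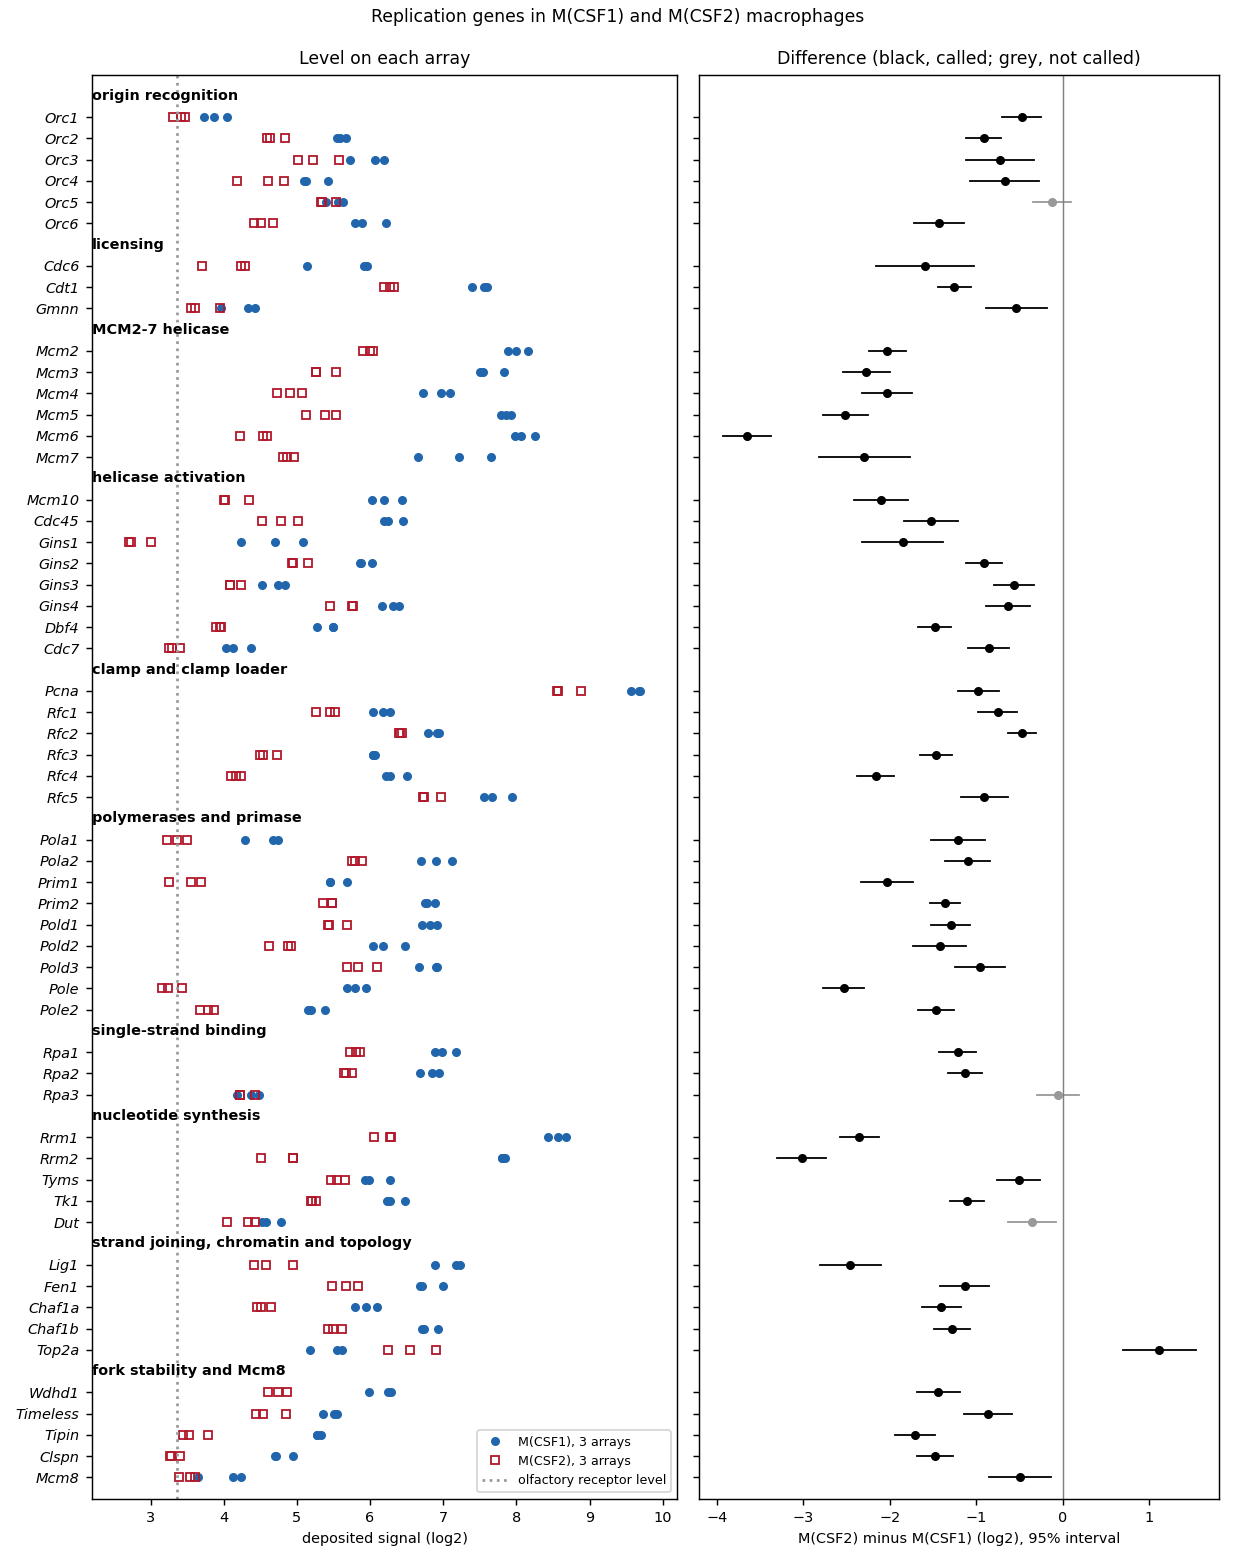
Left, deposited log2 signal of each of the 56 genes on each array, M(CSF1) as filled circles and M(CSF2) as open squares, grouped by role, with the olfactory receptor level of 3.36 dotted. Right, the fitted difference with its 95% interval from limma. Nearly all differences lie left of 0, the longest fall is that of Mcm6 at -3.65, and Top2a at 1.12 is the only called rise, by a probe set discussed in the text.

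**Figure D2:**
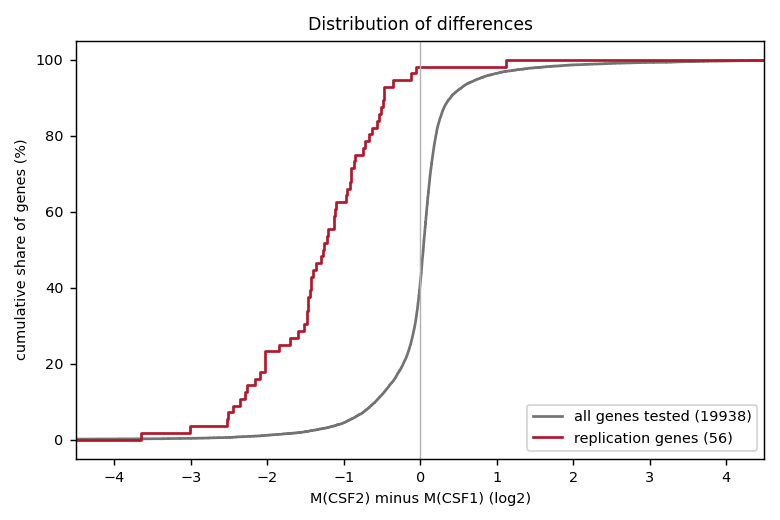
Cumulative share of genes, in percent, against the log2 difference between M(CSF2) and M(CSF1), for the 56 replication genes and for all 19938 genes tested. The curve of the replication genes crosses its middle at a median of -1.27 and that of all genes at 0.04.

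The 13 genes with a fitted fall of at least 4-fold included all 6 subunits of MCM2-7, Mcm10, the clamp loader subunit Rfc4 and the primase subunit Prim1. The others were the polymerase subunit Pole, both subunits of ribonucleotide reductase (Rrm1 and Rrm2) and the DNA ligase Lig1. Pole is placed there by its fitted value alone, since its M(CSF2) mean lay at or below the olfactory receptor level. Another 22 had a fitted fall of 2-fold to under 4-fold, among them Gins1, for which only a lower bound can be given, and 17 fell by less than 2-fold. The genes that did not pass were Orc5, Rpa3 and Dut.

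The promoters of the replication genes were searched for E2F motifs, spelled TTTCCCGC, TTTGGCGC or TTTCGCGC and read on both strands. The search covered RefSeq windows of 300 bases on GRCm38.p6 that run from 250 bases before to 50 bases after each annotated start. Windows existed for 47 of the 56 genes, and 17 of these 47 (36.2%) held at least 1 match. Of all 27025 genes with a window 2.12% held one, and of the tested genes 2.99%. The stretches below lie before the start and show the matches in capitals, first for genes that fell by more than 2-fold and then for Orc1 and Gins3, which fell by less. In Mcm6 and Mcm5 a run of 12 capitals is 2 overlapping matches, 1 on each strand.
Mcm6: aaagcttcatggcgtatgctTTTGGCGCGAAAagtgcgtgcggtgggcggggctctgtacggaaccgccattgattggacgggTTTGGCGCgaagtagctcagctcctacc
Mcm5: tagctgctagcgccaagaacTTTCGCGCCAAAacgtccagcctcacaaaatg
Mcm7: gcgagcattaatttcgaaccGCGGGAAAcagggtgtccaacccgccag
Cdc6: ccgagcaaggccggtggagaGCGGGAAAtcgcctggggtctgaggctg
Orc1: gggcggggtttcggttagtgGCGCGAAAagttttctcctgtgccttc
Gins3: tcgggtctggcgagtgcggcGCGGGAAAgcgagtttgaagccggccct

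The Mcm6 stretch is chr1:128359725-128359835 on the minus strand and that of Mcm5 chr8:75109336-75109387 on the plus strand. Mcm7 is shown at chr5:138172021-138172068 (minus strand), Cdc6 at chr11:98907993-98908040 (plus), Orc1 at chr4:108579407-108579453 (plus) and Gins3 at chr8:95633498-95633545 (plus). All lie before the annotated start. Across the 17 genes there were 23 matches, 12 beginning before the start and 11 at or after it, and 5 genes held more than 1.

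The 17 genes with an E2F match had a median difference of -1.46, the 30 with a window and no match -1.13, and the 9 without a window -1.37 (-1.31 with Gins1 at its bound). Mcm6 held 3 matches, while Mcm2, Rrm2, Pcna and the RefSeq start of Top2a held none in these windows. The CCAAT box, CCAAT on either strand, was present for 57.4% of the 47 genes and 41.7% of tested genes. The CHR motif, TTTGAA on either strand, which is linked to late cell cycle genes, was present for 17.0% and 17.3%. Over all tested genes with a window, an E2F match was found for 7.34% of those called at least 2-fold lower in M(CSF2) and for 1.78% of those called at least 2-fold higher. The replication genes were not left out of these shares, so the first share is not separate from the matches above. A match describes letters in a window and not a bound factor.

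**Figure D3:**
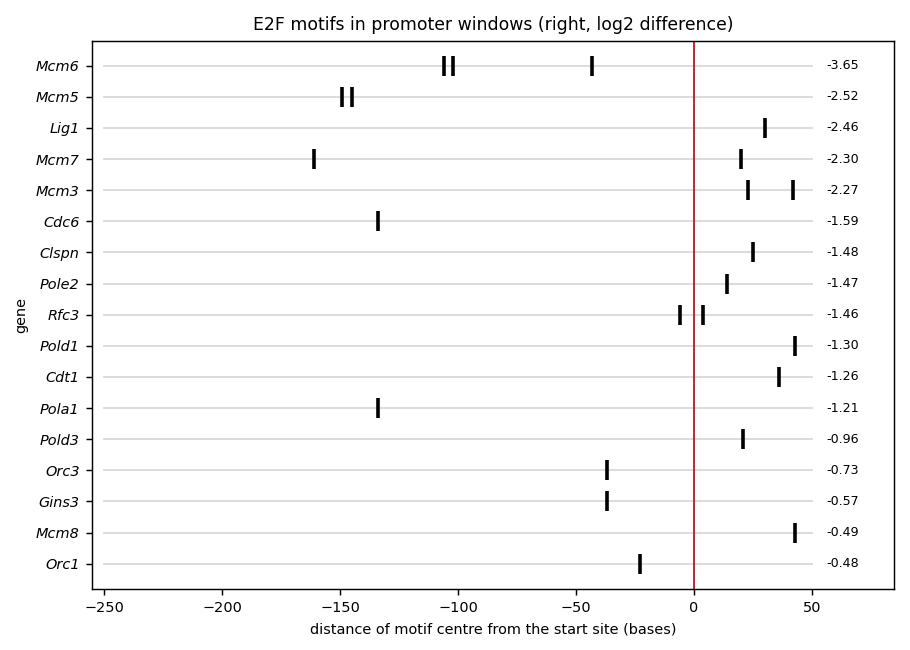
Position of each E2F motif match in the promoter windows of the 17 replication genes that hold one, as the distance of its centre from the annotated start in bases (red line at 0), ordered by the difference printed at the right (log2). Mcm6, at the top, has the largest fall and holds 3 matches. Orc1, at the bottom, has the smallest and holds 1, as does Lig1 with a fall of 2.46.

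Among the ORC subunits, which mark origins, 5 of 6 fell with a median of -0.70, the smallest median of any role. Orc6 fell most: it read 5.79, 6.22 and 5.88 on the M(CSF1) arrays and 4.42, 4.67 and 4.51 on the M(CSF2) arrays, a difference of -1.43 (SE 0.13, adjusted p = 9.9e-05). Orc5 read 5.56, 5.63 and 5.40 against 5.33, 5.35 and 5.54. Its groups overlapped, and its difference of -0.13 had a 95% interval of -0.34 to 0.09 (adjusted p = 0.38).

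Orc2 fell by 0.92 and Orc1, the subunit whose gene is best known as cell cycle regulated, by 0.48. For Orc1, 1 of the M(CSF2) arrays lay at or below the olfactory receptor level. Orc3 read 6.18, 6.07 and 5.73 against 5.22, 5.02 and 5.57, and fell by 0.73 (adjusted p = 0.013). Orc4 read 5.42, 5.12 and 5.10 against 4.61, 4.18 and 4.83, and fell by 0.67 (adjusted p = 0.021). Both had groups that did not overlap, but their calls were near the threshold and did not survive every omission of 1 array. The Orc3 call was lost without M(CSF1) replicate 1 or 2 or M(CSF2) replicate 1 or 2, at adjusted p of 0.0570 to 0.0723, and the Orc4 call without M(CSF1) replicate 1 or 2 or M(CSF2) replicate 1, at 0.0653 to 0.0973.

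All 3 licensing genes fell. Cdc6, the ATPase that brings MCM2-7 to ORC, read 5.95, 5.91 and 5.14 in M(CSF1) and 4.28, 4.24 and 3.70 in M(CSF2), a fall of 1.59 (SE 0.25, adjusted p = 0.0019). Replicate 3 was the lowest of both groups, yet the closest arrays of the groups were 0.86 apart. Cdt1, the second loader, fell by 1.26 (adjusted p = 2.1e-05). Gmnn, the inhibitor of Cdt1, read 4.42, 3.97 and 4.33 against 3.95, 3.55 and 3.61, and fell by 0.54 (adjusted p = 0.033). Its groups almost touched, and the call was lost without M(CSF1) replicate 1 or 3 or M(CSF2) replicate 2 or 3 (adjusted p of 0.107 to 0.136).

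The 6 subunits of the MCM2-7 ring fell by 2.03 to 3.65, the largest median fall of any role at -2.28. Mcm6 read 7.99, 8.25 and 8.07 in M(CSF1) and 4.59, 4.53 and 4.22 in M(CSF2), which is 12.6-fold lower (95% interval 10.4 to 15.3, adjusted p = 9.7e-07). Mcm5 read 7.79, 7.93 and 7.86 against 5.38, 5.53 and 5.12, a fall of 2.52 (adjusted p = 3.3e-06). In both genes the gap between groups was more than 10 times the SD of either.

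Mcm2 read 7.99, 8.16 and 7.88 against 6.00, 6.05 and 5.90 and fell by 2.03. Mcm3 read 7.50, 7.83 and 7.55 against 5.26, 5.54 and 5.26 and fell by 2.27. Mcm4 read 6.98, 7.09 and 6.73 against 5.06, 4.73 and 4.90 and fell by 2.03. These 3 subunits, with adjusted p of 3.6e-06 to 1.4e-05, were 4.08-fold to 4.83-fold lower. Mcm7 had the widest spread in M(CSF1), with 7.21, 7.66 and 6.65 against 4.96, 4.81 and 4.86, and fell by 2.30 (SE 0.22, adjusted p = 0.00018).

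The fall was unequal within the ring. On each array, Mcm6 minus the mean of the other 5 subunits was 0.49, 0.52 and 0.74 in M(CSF1) and -0.74, -0.80 and -0.98 in M(CSF2), on the log2 scale. Levels of different probe sets cannot be ranked, so only the change of this contrast between groups is a measurement.

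**Figure D4:**
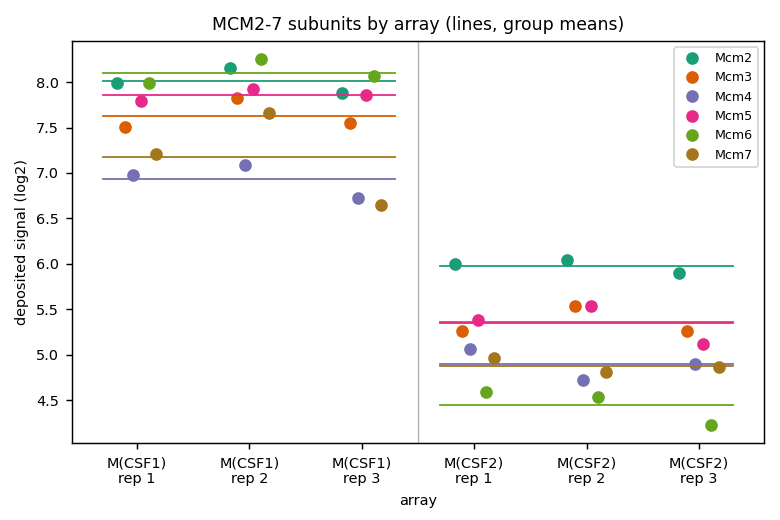
Deposited log2 signal of the 6 MCM2-7 subunits on each of the 6 arrays, with lines at the group means. All 6 lie at 6.65 or above on the M(CSF1) arrays and at or below 6.05 on the M(CSF2) arrays, and Mcm6 goes from a mean of 8.10 to one of 4.45.

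All 8 genes that turn the loaded ring into a helicase fell, with a fitted median of -1.20, or -1.11 with Gins1 at its bound. Mcm10, which helps the ring open and move, read 6.19, 6.44 and 6.03 in M(CSF1) and 4.01, 4.34 and 4.00 in M(CSF2), a fall of 2.10 (adjusted p = 1.9e-05). Cdc45, the partner of GINS and MCM2-7 in the active helicase, fell by 1.52. Of the kinase that triggers activation, the regulatory subunit Dbf4 fell by 1.48 and the catalytic subunit Cdc7 by 0.86. For Cdc7 the M(CSF2) mean and 2 of the M(CSF2) arrays lay at or below the olfactory receptor level.

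The 4 GINS genes, whose products form 1 complex, had unequal fitted falls. Gins1 read 4.70, 5.08 and 4.24 against 2.71, 3.01 and 2.74. All 3 of its M(CSF2) arrays lay at or below the olfactory receptor level, so its fold is a bound, at least 2.49-fold lower (fitted difference -1.85, adjusted p = 0.00031). Gins3 read 4.52, 4.83 and 4.75 against 4.23, 4.09 and 4.09 and fell by 0.57 (adjusted p = 0.0034). Gins2 and Gins4 lay between, at -0.91 and -0.63.

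The clamp Pcna, which tethers polymerases, fell by 0.98 from 9.64 ± 0.07 to 8.67 ± 0.19 (SD, n = 3 arrays each, adjusted p = 0.00027). Of the 5 subunits of RFC, the complex that loads it, all fell. Rfc4 fell most, from 6.27, 6.50 and 6.22 to 4.24, 4.10 and 4.17, a difference of -2.16 (adjusted p = 2.9e-06). Rfc2 fell least, from 6.91, 6.95 and 6.80 to 6.41, 6.43 and 6.40, a difference of -0.47 (adjusted p = 0.0016). The replicate spread of both was small and their intervals, 3.85-fold to 5.20-fold and 1.24-fold to 1.55-fold lower, lay far apart. Rfc3 fell by 1.46, Rfc5 by 0.91 and Rfc1, the large subunit, by 0.76.

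All 9 polymerase and primase genes fell, with a median of -1.37. Pole, the catalytic subunit of the leading strand polymerase epsilon, read 5.80, 5.95 and 5.68 in M(CSF1) and 3.44, 3.15 and 3.24 in M(CSF2), a fall of 2.53 (SE 0.10, adjusted p = 2.4e-06). Of its M(CSF2) arrays 2 lay at or below the olfactory receptor level, as did their mean, so no fold is given. Its partner Pole2 fell by 1.47.

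Within polymerase alpha and primase, which start every new strand, Prim1 fell by 2.03, Prim2 by 1.37, Pola1 by 1.21 and Pola2 by 1.10. Prim1 and Pola1 each had 1 M(CSF2) array at or below the olfactory receptor level. In polymerase delta, which copies the lagging strand, Pold2 fell by 1.42 and the catalytic subunit Pold1 by 1.30. Pold3 had the smallest fall of the 9, from 6.91, 6.90 and 6.67 to 5.83, 5.69 and 6.10, a difference of -0.96 (adjusted p = 0.00071), with no overlap between groups.

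Of RPA, the trimer that coats single-stranded DNA, 2 of the 3 subunits were called lower. Rpa1 read 7.17, 6.99 and 6.89 against 5.81, 5.87 and 5.72 and fell by 1.22 (adjusted p = 4.4e-05), and Rpa2 fell by 1.13. Rpa3, the smallest subunit, read 4.37, 4.48 and 4.18 against 4.22, 4.22 and 4.43, with overlapping groups and a difference of -0.05 (adjusted p = 0.75). Its dimmer probe set read 4.34, 4.13 and 4.00 against 3.69, 3.99 and 3.59, a difference of -0.40 whose adjusted p over all 23410 named probe sets was 0.055. The sign of the brighter set turned, to 0.015, without M(CSF1) replicate 2.

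Of the 5 genes that supply deoxynucleotides, 4 fell. Rrm2, the regulatory subunit of ribonucleotide reductase made in S phase, read 7.81, 7.81 and 7.85 in M(CSF1) and 4.51, 4.94 and 4.95 in M(CSF2), which is 8.10-fold lower (95% interval 6.65 to 9.86, adjusted p = 2.3e-06). Its partner Rrm1 fell by 2.36. The thymidine kinase Tk1 fell by 1.11 (-1.68 with a dimmer probe set), and the thymidylate synthase Tyms by 0.51 (adjusted p = 0.0091).

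Dut, which destroys dUTP so that it is not built into DNA, read 4.52, 4.78 and 4.57 against 4.43, 4.33 and 4.04. Its groups did not overlap, but the difference of -0.36 missed the threshold (adjusted p = 0.064). It passed after quantile normalization (adjusted p = 0.034), after median centring (0.037) and when dim genes were left out (0.0325 and 0.0417).

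The genes that finish and package new DNA also fell. Lig1, which seals lagging strand fragments, read 6.89, 7.22 and 7.18 in M(CSF1) and 4.94, 4.58 and 4.41 in M(CSF2), a fall of 2.46 (SE 0.15, adjusted p = 1.6e-05). Fen1, the nuclease that trims those fragments, fell by 1.13. The subunits of the histone chaperone CAF-1 fell by similar amounts, Chaf1a by 1.40 and Chaf1b by 1.28.

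Top2a, the topoisomerase that untangles replicated DNA, had probe sets that disagreed. The set paired with a RefSeq transcript, 10390707, read 6.85, 7.02 and 6.97 in M(CSF1) and 4.20, 3.77 and 3.73 in M(CSF2), a fall of 3.04 (SE 0.13, adjusted p = 4.6e-06 over 23410 probe sets). The set 10390746, annotated through 1 cDNA clone alone, read 5.55, 5.61 and 5.18 against 6.54, 6.90 and 6.25, a rise of 1.12 (SE 0.18, adjusted p = 0.0028). This second set has the higher mean and therefore stands for the gene in the counts above. Another 2 sets carry the same clone but are annotated to both Top2a and Hibadh, a mitochondrial dehydrogenase gene, and gave -0.10 (adjusted p = 0.66) and 0.14 (adjusted p = 0.48). So the rise was seen in 1 of the 3 sets that carry the clone, and in no set paired with a RefSeq transcript of Top2a. With RefSeq-paired sets preferred, 53 of the 56 genes were lower and 0 higher in limma's test, with 0 higher at an unadjusted p under 0.05 too.

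**Figure D5:**
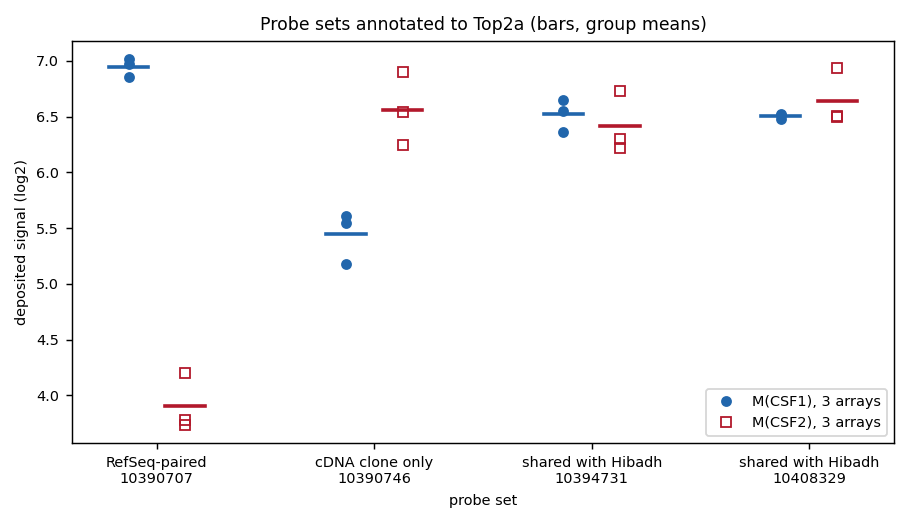
Deposited log2 signal of the 4 probe sets annotated to Top2a on the 3 M(CSF1) and 3 M(CSF2) arrays, with bars at the group means. The RefSeq-paired set falls from 6.95 to 3.90, the set annotated through a cDNA clone alone goes up from 5.45 to 6.56, and the groups overlap in both sets shared with Hibadh.

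All 4 fork stability genes fell. Tipin, which works with Timeless to couple helicase and polymerase, read 5.27, 5.34 and 5.27 in M(CSF1) and 3.52, 3.44 and 3.78 in M(CSF2), a fall of 1.71 (adjusted p = 1.1e-05). Timeless itself fell by 0.86, the checkpoint mediator Clspn by 1.48 and Wdhd1, which links the helicase to polymerase alpha, by 1.44. For Clspn the M(CSF2) mean and 2 of the M(CSF2) arrays lay at or below the olfactory receptor level. Mcm8, a relative of MCM2-7 that acts in recombination, read 3.65, 4.24 and 4.13 against 3.39, 3.61 and 3.53 and fell by 0.49 (adjusted p = 0.048). That call was the weakest of the 52. It was lost without any 1 of M(CSF1) replicate 2 or 3 or M(CSF2) replicate 1, 2 or 3, at adjusted p of 0.0964 to 0.177.

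Other genes of the same pathway were taken from lists, each read against the same background of 15.6% lower and 11.9% higher. Of 27 other replication factors, 19 were lower and 1 higher. With an array left out 15 to 18 were lower and 0 to 2 higher, and quantile normalization gave 19 lower and 3 higher. The PCNA-binding factor Pclaf fell by 2.33, and the origin firing factors Ticrr and Topbp1 by 1.86 and 1.85. The small polymerase delta subunit Pold4 rose by 0.31 (adjusted p = 0.017). The Pold4 call was lost, at adjusted p of up to 0.0682, without M(CSF1) replicate 2 or M(CSF2) replicate 3, after median centring and with the replicate number as a block.

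Of 13 measured genes that rebuild chromatin behind the fork, 12 were lower and 0 higher, also 0 at an unadjusted p under 0.05 in limma. Omission of single arrays left 10 to 12 lower, and without M(CSF2) replicate 2 there was 1 higher. Asf1b, a histone chaperone, changed by -2.75, Uhrf1, which brings the maintenance methyltransferase to new DNA, by -2.69, while the remodeller Hells, with all 3 M(CSF2) arrays at or below the olfactory receptor level, was at least 3.17-fold lower. Of 20 measured nucleotide supply genes, 14 were lower and 0 higher (0 at an unadjusted p under 0.05). These counts were 10 to 14 and 0 with an array left out, and 13 and 1 after quantile normalization. The largest falls were those of the CTP synthase Ctps at -2.16, the deoxycytidine kinase Dck at -1.87 and the serine hydroxymethyltransferase Shmt2 at -1.36. Samhd1, which degrades deoxynucleotides and was singled out after its values were seen, fell by 1.32.

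Of the 24 S phase regulators, 16 were lower and 0 higher (0 at an unadjusted p under 0.05). With an array left out 14 to 16 were lower and 0 higher. Their fitted median was -0.75, or -0.64 with 2 genes, Lin9 and Ccne2, at their bounds. The cyclin Ccna2 fell by 3.35, the CDK cofactor Cks1b by 2.52 and E2f8, an E2F that represses transcription, by 1.78. Both activators and repressors of S phase genes were among those that fell. E2f1, an activator, fell by 1.15, and the retinoblastoma family genes Rb1 and Rbl1, which restrain E2F, by 1.39 and 1.38, all singled out after their values were seen.

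Of 9 measured mitosis markers all 9 were lower, with a fitted median of -1.88. The mitotic kinase Plk1 fell by 2.37. The spindle motor Kif11 was at least 3.69-fold lower and the checkpoint kinase Bub1 at least 3.13-fold lower, since their M(CSF2) arrays all lay at or below the olfactory receptor level, and with both at their bounds the median was -1.76. Of 6 measured CDK inhibitor genes 2 were higher and 1 lower. Cdkn2b, which blocks the cyclin D kinases, rose by 1.19 (adjusted p = 0.00034), Cdkn2a by 0.56 (adjusted p = 0.0096) and Cdkn2c fell by 0.93 (adjusted p = 0.0040). The Cdkn2a call was lost without M(CSF1) replicate 1 (adjusted p = 0.052).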

How the data were processed

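The authors deposited 1 table of log2 values, with 28941 probe sets and 6 arrays. That the scale is log2 was read from the values, 1.48 to 13.27, and no source used here states it. The submitters' processing notes name MAS5. Background correction, normalization and summarisation are not given in the sources used here. Of the probe sets, 21789 had 1 gene in the platform annotation, 1621 several and 5531 none. Symbols were updated by Entrez identifier through a RefSeq table of GRCm38.p6 (21698 found). The probe set with the highest mean stood for each gene, which left 19938 genes with no filter. The difference between groups was tested with limma 3.58.1 in R 4.3.3 (lmFit, eBayes, 2-sided), with Benjamini-Hochberg adjustment over all genes, and the procedure was tested on simulated data. Every adjusted p is limma's. The olfactory receptor level, 3.36, is the 95th percentile of the mean signal of 1027 such genes. A gene that did not exceed it on any of a group's 3 arrays has its fold given as a bound, the brighter mean over that level. The number of arrays limits the precision.

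Alternatives were quantile normalization, median centring, exclusion of dim genes by either of 2 filters, averaging probe sets per gene, each probe set alone, an intensity trend, robust variance, blocking on the replicate number, and omission of single arrays. Preferring RefSeq-paired probe sets was chosen after the data were seen. The genes, roles and lists were chosen with earlier results of these data known. Values by array are given for MCM2-7, Top2a, the genes that changed most and least in each role, and those whose call changed under an alternative. From the wider lists, up to 3 called genes in each direction are named.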

Additional observations from a re-analysis of the deposited data

How the results depend on the processing

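Under 15 alternative settings, or 14 for genes that a filter on dim genes left out, 49 of the 56 replication genes kept their direction and their side of the threshold. The exceptions were Dut, Gmnn, Mcm8, Orc3, Orc4, Rpa3 and Top2a. The count of genes lower in M(CSF2) was 49 to 50 with an array left out and 46 to 55 under the other settings, of which the lowest tests 49 of the 56 and the highest counts 60 probe sets. The count of higher genes went from 1 to 0 with probe sets averaged per gene and with RefSeq-paired sets preferred (0 at an unadjusted p under 0.05 in limma), since Top2a then gave -0.96 and -3.04. Rpa3 ranged from -0.138 to 0.015 with an array left out, turning positive without M(CSF1) replicate 2. The median difference ranged from -1.33 to -1.20.

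With the replicate number as a block, 52 were lower, 1 was higher, and 5072 of all genes were called, against 5488. Deviations of same-numbered arrays correlated at 0.004, -0.044 and -0.253, and those of differently numbered arrays at -0.186 to 0.212. With 3 arrays in each group, these values cannot tell whether same-numbered samples share a source. Dim genes limit what can be read: 7 of the 56 had an M(CSF2) array at or below the olfactory receptor level. Over the 56 genes, Spearman rho with the difference was -0.467 for the M(CSF1) mean and 0.19 for the M(CSF2) mean. Each mean is itself a term of the difference, so these values cannot tell whether brighter genes fell more. The part of signal level in the unequal falls within a complex was not tested.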

Other observations

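Among the M(CSF1) arrays, replicate 2 was the highest of its group for 38 of the 56 genes and replicate 3 the lowest for 33, while among 13627 genes above the olfactory receptor level replicate 2 was the highest for 28.0% and replicate 3 the lowest for 48.3%. The mean over the 56 genes was 6.16, 6.29 and 6.08 on the M(CSF1) arrays and 4.87, 4.88 and 4.84 on the M(CSF2) arrays.

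Pcna was read by 2 probe sets with the same accessions, at -0.98 each and with values within 0.03 on every array. They may therefore not be separate measurements of the gene, but whether they share probes was not checked. The 2 sets of Tk1 both fell, with differences of -1.11 and -1.68.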
